A study of Mus musculus with 22 samples.

Results

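The germ cell genes Dppa3, Prdm14, Stk31, Mael, Dazl, Sycp3, Piwil2 and Rec114 were followed in embryoid bodies exposed to tetrabromobisphenol A (TBBPA), a brominated flame retardant, in their vehicle controls, and in the embryonic stem (ES) cells they were made from. The genes were chosen by name, with earlier results of these data known. Each symbol matched 1 of the 19721 genes in the expression tables, with a count in all 22 libraries. Embryoid bodies were sampled on 5 days, 4, 9, 12, 18 and 28, named D4 to D28 here, with the D of the titles read as day. Each day gave 1 library with 10 nM TBBPA, 1 library with 100 nM TBBPA and 2 libraries with 0.1% dimethyl sulfoxide (DMSO). The last 2 libraries came from ES cells, called so by their titles, although the source field names embryoid bodies for every library. No TBBPA dose or DMSO content is listed for these ES libraries. The pluripotency markers of the ES libraries summed to 6070 and 6110 FPKM, above every embryoid body library, the highest of which reached 3000 FPKM. All libraries were made from the single mouse ES cell line J1, with no genetic change named in the labels, so each group is a state of 1 line in culture.

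The genes serve successive steps of germ cell life. Prdm14 and Dppa3 belong to the earliest, the primordial germ cells, and are also used by ES cells. Dazl binds germ cell messenger RNAs and controls their translation, Piwil2, Mael and Stk31 belong to the PIWI and piRNA machinery that silences transposons, and Rec114 and Sycp3 serve the breakage and the axes of meiotic chromosomes. In somatic cells many such genes are kept silent by DNA methylation of CpG-rich promoters and by a Polycomb complex containing E2F6, MGA and MAX, which reads an E-box (CACGTG) and an E2F6 core site (GCGGGA, or TCCCGC on the other strand).

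Promoter sequence from RefSeq, on GRCm38.p6, was at hand for 5 of the 8 genes. It is shown because the E-box and the E2F6 core are letters that can be looked for before these genes' starts. The 250 bases before the annotated gene start are given 5′ to 3′ on the gene's strand, with matches to the E-box and the E2F6 core in capitals. The windows are chr1:166238745-166238994 (minus strand) for Mael, chr6:49395289-49395538 (plus) for Stk31, chr10:88459337-88459586 (plus) for Sycp3, chr9:58741560-58741809 (minus) for Rec114 and chr17:50293621-50293870 (minus) for Dazl. They are upstream sequence, except that the last bases for Dazl, Mael and Sycp3 lie in the first exon annotated by GENCODE.
Mael: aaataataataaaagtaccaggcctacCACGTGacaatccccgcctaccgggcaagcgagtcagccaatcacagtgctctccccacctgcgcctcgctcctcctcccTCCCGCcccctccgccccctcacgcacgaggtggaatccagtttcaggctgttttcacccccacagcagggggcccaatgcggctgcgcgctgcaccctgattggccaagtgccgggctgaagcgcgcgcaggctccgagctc
Stk31: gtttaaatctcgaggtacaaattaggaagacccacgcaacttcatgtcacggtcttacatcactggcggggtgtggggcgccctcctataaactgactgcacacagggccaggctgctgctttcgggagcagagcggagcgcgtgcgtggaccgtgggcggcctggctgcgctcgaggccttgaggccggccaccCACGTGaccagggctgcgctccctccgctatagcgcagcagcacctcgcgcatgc
Sycp3: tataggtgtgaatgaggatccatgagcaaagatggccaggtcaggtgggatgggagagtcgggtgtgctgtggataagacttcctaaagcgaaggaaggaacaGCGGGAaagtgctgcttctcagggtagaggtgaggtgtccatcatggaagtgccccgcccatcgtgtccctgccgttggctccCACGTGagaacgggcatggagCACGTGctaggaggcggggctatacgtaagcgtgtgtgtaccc
Rec114: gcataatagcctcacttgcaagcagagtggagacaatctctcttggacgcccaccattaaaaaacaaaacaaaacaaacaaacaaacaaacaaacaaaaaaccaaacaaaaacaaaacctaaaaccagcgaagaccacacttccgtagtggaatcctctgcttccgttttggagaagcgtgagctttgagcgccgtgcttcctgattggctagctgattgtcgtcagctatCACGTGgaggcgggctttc
Dazl: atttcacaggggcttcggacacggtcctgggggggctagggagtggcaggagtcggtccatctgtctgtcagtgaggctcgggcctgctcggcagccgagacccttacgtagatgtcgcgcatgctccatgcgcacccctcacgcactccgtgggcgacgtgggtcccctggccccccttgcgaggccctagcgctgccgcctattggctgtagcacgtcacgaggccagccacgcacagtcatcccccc

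An E-box was present in 4 of these 5 genes. It began 223 bases before the start in Mael, 55 in Stk31, 19 in Rec114 and, in 2 copies, 64 and 43 in Sycp3. The E2F6 core began 143 bases before the start in Mael and 147 in Sycp3, and the Dazl window held neither motif. Counted over annotated starts, of which Stk31 has a second one, 5 of 6 windows of these genes held the E-box, the overlapping Stk31 windows holding 1 and the same site, against 6.0% of 32851 windows of the same length over all genes. The E2F6 core was in 2 of the 6 windows, against 16.9% of all windows. Among 98 windows of other germ cell genes, 22.4% held the E-box and 23.5% the E2F6 core. CpG content was also high, with a median ratio of observed to expected CpG of 0.77 in the 6 windows and 0.37 in all windows. It was 0.56 in the 98 windows of other germ cell genes and 0.79 in 28 windows of repressors of germ cell genes. Of these 28 windows, 17.9% held the E-box and 28.6% the E2F6 core. Both motifs contain a CpG, and no comparison matched for CpG content was made. Both motifs were searched on both strands and do not overlap each other. A match is a string of letters and not a measured binding site.

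**Figure D1:**
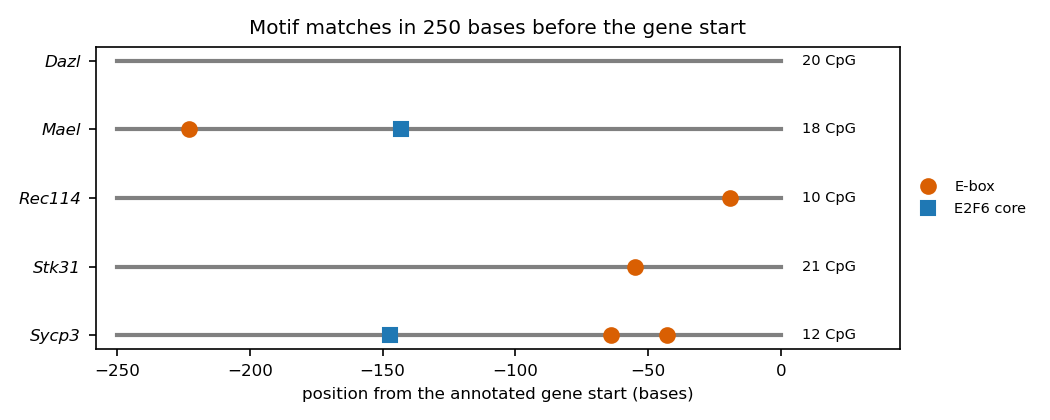
Positions of E-box (circles) and E2F6 core (squares) matches in the 250 bases before the annotated start of 5 germ cell genes, with distance from the start in bases on the horizontal axis and the number of CpG dinucleotides at the right. Mael and Sycp3 carry both motifs, Stk31 and Rec114 the E-box, and Dazl neither.

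Total counts lay between 18158583 and 18998141 per library, with 16427 to 17816 genes listed. The mean chi-square per gene between the libraries of a DMSO pair was 1.63 to 3.38, where 1 is counting noise, and 22.5 between the ES libraries. Between the doses, 10 nM and 100 nM, it was 3.26 at D4, 5.42 at D9, 3.38 at D12, 6.81 at D18 and 7.96 at D28, and the tests by day treat these libraries as a pair. Levels within a gene are CPM, counts scaled to a common normalised library size, levels between genes are the deposited FPKM, and changes are log2 ± SE. A gene is said to rise, fall or pass when its Benjamini-Hochberg adjusted p, over all genes tested, was under 0.05 in edgeR's quasi-likelihood test. All 8 genes passed the filter on low counts. Separate cultures are not named in the labels. The p-values therefore reflect the spread among these libraries alone, which may be technical. In such bulk RNA, fewer cells of a type and less RNA per cell cannot be told apart.

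Between genes, FPKM showed which of the 8 led in each control group. In ES cells Prdm14 was highest with 26.1 ± 0.47 FPKM (SD, n = 2), followed by Rec114 with 24.4 ± 3.04 FPKM, and the libraries of these neighbours overlapped. Mael and Piwil2 were lowest, at 1.87 ± 0.10 and 1.58 ± 0.55 FPKM. In D4 embryoid bodies with DMSO, Sycp3 led with 44.9 ± 3.37 FPKM and Dppa3 followed with 20.7 ± 0.46 FPKM, while Prdm14 averaged 2.81 ± 0.16 FPKM. Dppa3 led at D9 with 10.4 ± 0.74 FPKM and at D12 with 10.5 ± 0.40 FPKM, close to Sycp3 at 9.43 ± 0.59 FPKM. Dazl led with 15.4 ± 0.79 FPKM at D18 and 18.1 ± 0.23 FPKM at D28. The most abundant of the 8 was thus another gene in ES cells, at D4, at D9 and D12, and from D18 on.

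Entry into embryoid bodies split the genes. At D4 with DMSO against ES cells, 4 of the 8 rose, 3 fell and Stk31 did not pass. Of all genes, 62.3% passed in this step, 31.9% higher and 30.3% lower. The median change of the 8 was 0.29, and of all genes 0.00.

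The pair expressed by pluripotent and primordial germ cells parted at this step. Prdm14, a transcriptional regulator needed for both states, stood at 76.0 and 78.6 CPM in the ES libraries, 8.49 and 7.82 in the D4 DMSO libraries, 11.03 and 9.81 at D9, 10.6 and 9.67 at D12, 7.52 and 9.03 at D18, and 5.20 and 4.90 at D28. Every embryoid body library lay far below both ES libraries. The D4 level was 9.48-fold lower than in ES cells (log2 -3.24 ± 0.11, adjusted p = 8.19e-12) and the D28 level 15.1-fold lower (-3.92 ± 0.12, adjusted p = 4.44e-13). Dppa3, a maternal factor that protects DNA methylation in the zygote and marks primordial germ cells, stood at 13.6 and 10.7 CPM in ES cells, 18.7 and 17.99 CPM at D4, 7.91 and 8.74 at D9, 8.25 and 7.83 at D12, 6.17 and 6.99 at D18, and 5.35 and 4.75 at D28. Its D4 libraries were thus above all other control libraries, and it rose at D4 (0.59 ± 0.13, adjusted p = 0.00149) and fell at D9 against D4 (-1.14 ± 0.14, adjusted p = 6.37e-06).

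Dazl ran a course of its own. It stood at 44.2 and 55.1 CPM in ES cells, 9.34 and 9.32 at D4, 11.6 and 10.9 at D9, 25.4 and 26.3 at D12, 41.2 and 44.3 at D18, and 49.4 and 49.1 at D28. The DMSO pairs climbed without overlap between days, and the D28 pair fell inside the range of the ES pair. Dazl fell at D4 against ES cells (-2.41 ± 0.11, adjusted p = 1.96e-10), rose at D12 against D9 (1.22 ± 0.11, adjusted p = 2.74e-06) and rose again at D18 against D12 (0.73 ± 0.10, adjusted p = 4.08e-05). The change at D28 against ES cells was 0.00 ± 0.09 (adjusted p = 0.968). By contrast, the 5 genes that fell at D28 against ES cells were Prdm14, Rec114, Stk31, Dppa3 and Sycp3, in a step in which 83.1% of all genes passed, 38.2% lower and 45% higher. The Sycp3 fall did not pass without the second ES library or the second D28 library, nor with library size alone, in the 3 limma fits or in the fit of all 22 libraries. With library size alone and in the 3 limma fits, Mael and Dazl passed as higher. Without the second ES library Dazl passed as higher, and without the first ES library Piwil2 passed as lower.

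Of the piRNA genes, Mael and Piwil2 peaked at D4. Mael, which helps piRNAs silence transposons, stood at 3.37 and 3.16 CPM in ES cells and 16.8 and 16.9 at D4, then 5.76 and 5.47 at D9, 6.82 and 6.85 at D12, 5.06 and 5.16 at D18, and 3.60 and 3.54 at D28. Its D4 pair was the highest of its control libraries and its ES pair the lowest. Piwil2, a PIWI protein of fetal male germ cells that binds piRNAs, stood at 6.68 and 11.2 CPM in ES cells and 14.8 and 16.6 at D4, then 5.22 and 6.33 at D9, 8.61 and 7.52 at D12, 7.92 and 6.05 at D18, and 7.70 and 8.44 at D28. Only its D4 pair stood clear of the other control pairs. Stk31, a kinase-like protein with a Tudor domain, stood at 10.9 and 9.12 CPM in ES cells and 9.52 and 10.3 at D4, with no separation, and at 3.93 and 3.43 at D9, 5.09 and 6.19 at D12, 5.06 and 4.96 at D18, and 3.90 and 3.13 at D28. Mael rose 5.15-fold at D4 (2.36 ± 0.14, adjusted p = 1.94e-09) and Piwil2 1.75-fold (0.81 ± 0.20, adjusted p = 0.00355). At D9 against D4, all 3 fell, Mael (-1.59 ± 0.12), Piwil2 (-1.44 ± 0.21) and Stk31 (-1.43 ± 0.17).

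Both meiosis genes changed strongly at D4, in opposite directions. Sycp3, a structural protein of the chromosome axis and the synaptonemal complex, stood at 7.34 and 11.4 CPM in ES cells and 52.9 and 58.5 at D4, then 9.79 and 9.29 at D9, 9.63 and 10.5 at D12, 6.64 and 8.55 at D18, and 6.86 and 5.87 at D28. The D4 pair was several times every other control library. Its rise was 5.92-fold (2.57 ± 0.17, adjusted p = 1.15e-08) and its fall at D9 against D4 was 5.85-fold. Rec114, a partner of Mei4 in making meiotic DNA breaks, stood at 25.9 and 22.1 CPM in ES cells and 4.52 and 4.03 at D4, then 5.81 and 7.08 at D9, 6.77 and 5.27 at D12, 5.61 and 4.71 at D18, and 4.20 and 4.04 at D28. Both ES libraries were well above every embryoid body library, and the fall at D4 was 5.61-fold (-2.49 ± 0.17, adjusted p = 1.15e-08).

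Sycp3 and Rec114 each overlap a gene on the opposite strand, and whether the counting used strand is not stated. Chpt1, which overlaps Sycp3, averaged 4.81 FPKM at D4 and 14.2 FPKM in ES cells, the opposite direction to Sycp3. Nptn, which overlaps Rec114, averaged 21.8 FPKM at D4 and 33.1 FPKM in ES cells (-0.64 ± 0.08). At D9 against D4 both Nptn (0.91 ± 0.07) and Rec114 (0.59 ± 0.18) rose. At D28 against ES cells Nptn was higher (0.71 ± 0.07) and Rec114 lower (-2.52 ± 0.16). Whether reads of Nptn entered the Rec114 counts was not tested. The Sycp3 counts were fractional in all 22 libraries, so some of its reads may have been shared with other genes and its level is uncertain. Stk31 and Rec114 overlap pseudogenes, and Piwil2 overlaps small RNA genes on its own strand.

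The control steps between days were also tested. At D9 against D4, 5 fell and Prdm14 (0.35 ± 0.12) and Rec114 (0.59 ± 0.18) rose, where 60.8% of all genes passed, and the median of the 8 was -1.29 against 0.01 for all genes. Without the second D4 library neither rise passed and 5 genes were left, without the first D9 library Prdm14 did not pass, and without the second D9 library Rec114 did not. The Prdm14 rise did not pass in DESeq2 or in the fit of all 22 libraries either, where 6 of the 8 passed. Dazl passed as higher with library size alone and in the 3 limma fits. At D12 against D9, Dazl and Stk31 (0.63 ± 0.18) rose, where 33.1% of all genes passed, and Stk31 did not pass without the second library of either day. At D18 against D12, Dazl rose and Mael fell (-0.41 ± 0.13), where 37.7% passed, but Mael did not pass without any of the 4 libraries in turn. The share of genes that passed was 2 of 8 in each of these steps, no higher than over all genes. At D28 against D18, Prdm14 (-0.72 ± 0.13), Stk31 (-0.51 ± 0.18) and Mael (-0.52 ± 0.14) fell, where 53% passed. Stk31 did not pass there without either D18 library or the second D28 library. Only Prdm14 passed that step in DESeq2 or in a fit of all 22 libraries.

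**Figure D2:**
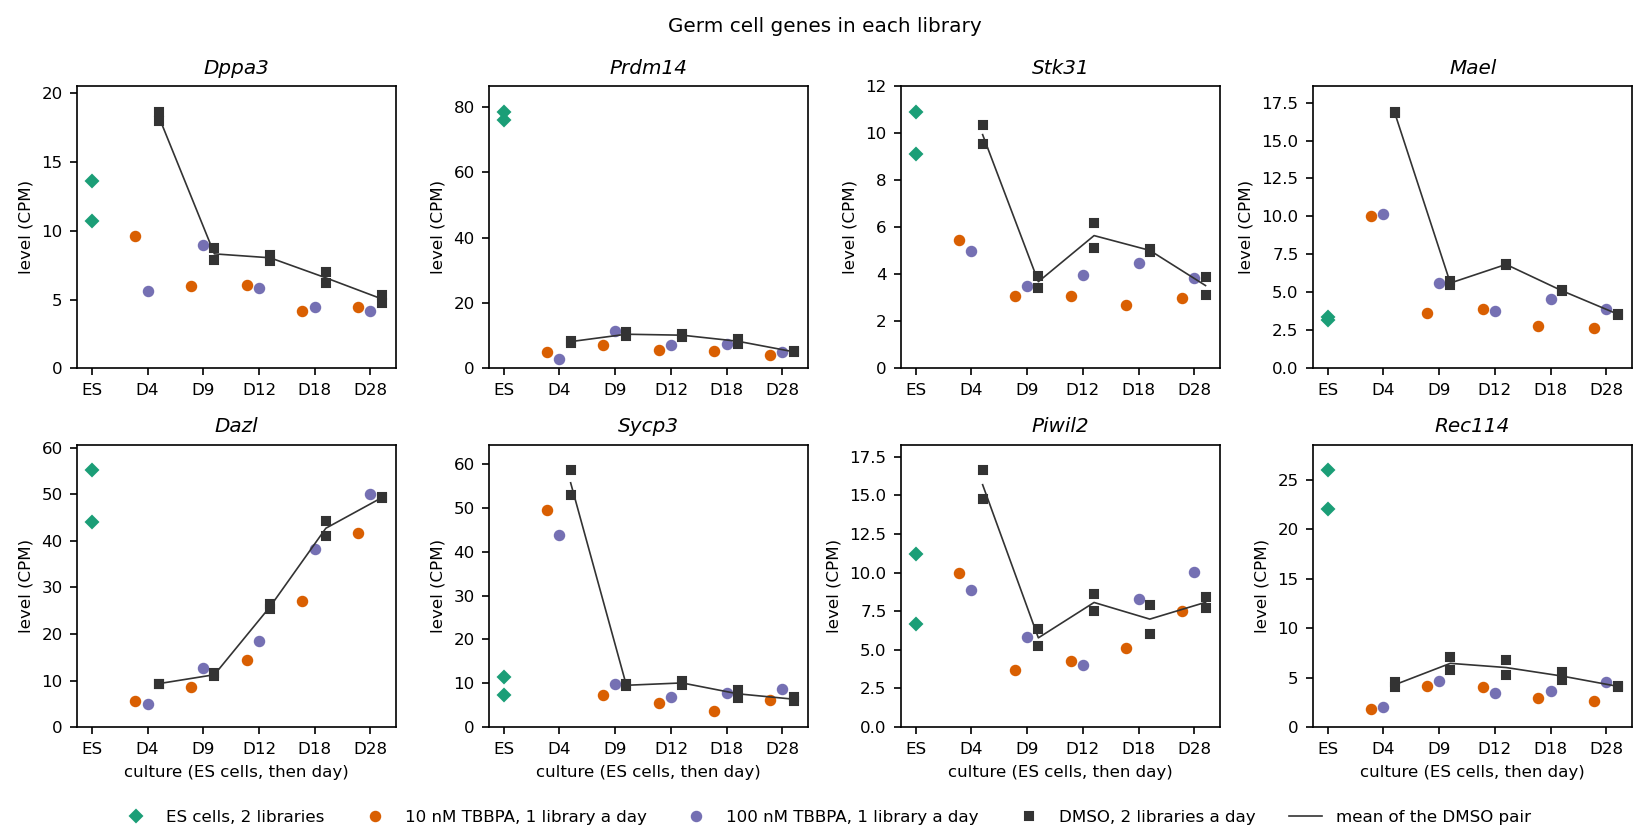
Level in CPM (vertical axis, from 0, separate scale in each panel) of each germ cell gene in ES cells and at D4 to D28, with 10 nM TBBPA (orange), 100 nM TBBPA (purple) and DMSO (black squares, 2 libraries a day, line through their mean), and ES cells as green diamonds. Sycp3, Mael, Piwil2 and Dppa3 are highest at D4, Prdm14 and Rec114 in ES cells, and Dazl climbs to D28. The TBBPA points lie mostly below the DMSO line.

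With the TBBPA doses of a day as a pair, 2 of the 8 genes fell at D4, 6 at D12 and none at D9, D18 or D28. Of 80 values (8 genes in 10 TBBPA libraries), 64 lay below both DMSO libraries of their day and 10 above both, all 10 of them at 100 nM. Over all genes, 37% of such values lay below both. In the 100 nM libraries of D9 and D28 more of the genes lay above both DMSO libraries (4 and 5) than below both (1 and 2). The share of all genes above both was not counted, here or for single days. The counts above both therefore cannot be set against all genes. The 80 values are not independent, because genes share libraries and the doses of a day share 1 DMSO pair. The 8 genes, and the lists of other genes below, were chosen with earlier results of these data known. Shares of all genes beside them, here and below, are therefore a description and not a test of the set.

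At D4 all 8 genes lay below both DMSO libraries in both TBBPA libraries, which was so for 22.9% of all genes. Dppa3 fell most, with 9.60 CPM at 10 nM and 5.64 CPM at 100 nM, against 18.7 and 17.99 CPM with DMSO. Prdm14 had 4.86 and 2.85 CPM with TBBPA, against 8.49 and 7.82 CPM with DMSO. Rec114 had 1.86 and 2.06 CPM with TBBPA, against 4.52 and 4.03 CPM. In Dppa3 and Prdm14 the 100 nM library was the lower of the pair, and in Rec114 the 10 nM library. Stk31 had 5.46 and 4.97 CPM with TBBPA, against 9.52 and 10.3 CPM with DMSO. Dazl had 5.58 and 4.91 CPM with TBBPA, against 9.34 and 9.32 CPM, and Mael 10.0 and 10.2 CPM, against 16.8 and 16.9 CPM. Piwil2 had 9.96 and 8.86 CPM with TBBPA, against 14.8 and 16.6 CPM, and Sycp3 49.5 and 43.9 CPM, against 52.9 and 58.5 CPM. Sycp3 was thus the closest to its DMSO level. For Mael, Stk31 and Sycp3 the TBBPA libraries of D4 were also higher than those of any later day. In the test, 2 of the 8 fell, Dppa3 by 1.26 ± 0.19 (adjusted p = 0.00533) and Stk31 by 0.93 ± 0.20 (adjusted p = 0.0426), where 0.372% of all genes fell and 0.0855% rose. The estimates of Prdm14 (-1.08 ± 0.24, adjusted p = 0.0516), Rec114 (-1.12 ± 0.26, adjusted p = 0.0531) and Mael (-0.74 ± 0.18, adjusted p = 0.0784) did not pass, and the median of the 8 was -0.88 against 0.00 for all genes. Neither fall passed without either DMSO library or the 100 nM library, nor with the DMSO pair summed to 1 library, and Stk31 failed also without the 10 nM library. DESeq2 called 5 of the 8 and a fit of the 4 libraries alone all 8.

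At D9 the 10 nM library was below both DMSO libraries in 8 of 8 genes (38.8% of all genes) and the 100 nM library in 1 of 8, Rec114 (38.3% of all genes). Mael had 3.65 CPM at 10 nM and 5.62 at 100 nM, against 5.76 and 5.47 CPM with DMSO. Dazl had 8.59 and 12.6 CPM with TBBPA, against 11.6 and 10.9 CPM, and Dppa3 6.01 and 8.95 CPM, against 7.91 and 8.74 CPM. In these genes the 10 nM library alone was low. Prdm14 had 7.25 and 11.3 CPM with TBBPA, against 11.03 and 9.81 CPM with DMSO. Piwil2 had 3.71 and 5.84 CPM, against 5.22 and 6.33 CPM, and Sycp3 7.43 and 9.91 CPM, against 9.79 and 9.29 CPM. Stk31 had 3.06 and 3.49 CPM with TBBPA, against 3.93 and 3.43 CPM with DMSO, so its 100 nM library lay between the DMSO libraries. Rec114 had 4.13 and 4.64 CPM, against 5.81 and 7.08 CPM. Taking both libraries as a pair, none of the 8 passed in edgeR, and DESeq2 and limma called none either. Of all genes 2.34% passed in edgeR, 0.964% lower and 1.37% higher. An unadjusted p under 0.05 was found for 1 of the 8 and for 2142 of 16383 genes tested. The largest estimate was that of Rec114 (-0.56 ± 0.21, adjusted p = 0.235).

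At D12 more of the genes passed than on any other day. All 8 genes lay below both DMSO libraries in both TBBPA libraries, as did 28.3% of all genes. Piwil2 had 4.26 CPM at 10 nM and 4.01 CPM at 100 nM, against 8.61 and 7.52 CPM with DMSO. Mael had 3.89 and 3.80 CPM with TBBPA, against 6.82 and 6.85 CPM, and Dazl 14.4 and 18.6 CPM, against 25.4 and 26.3 CPM. These 3 genes were well clear of their DMSO pairs at both doses. Prdm14 had 5.45 and 7.18 CPM with TBBPA, against 10.6 and 9.67 CPM with DMSO. Stk31 had 3.06 and 3.96 CPM, against 5.09 and 6.19 CPM, and Rec114 4.05 and 3.49 CPM, against 6.77 and 5.27 CPM. Sycp3 had 5.52 and 6.93 CPM, against 9.63 and 10.5 CPM. Dppa3 had 6.02 and 5.83 CPM with TBBPA, against 8.25 and 7.83 CPM, the smallest gap of the 8. In the test, 6 of the 8 fell, where 21.1% of all genes passed, 9.19% lower and 11.9% higher. They were Piwil2 (-0.96 ± 0.26, adjusted p = 0.0133), Mael (-0.83 ± 0.21, adjusted p = 0.00738), Prdm14 (-0.68 ± 0.21), Stk31 (-0.68 ± 0.22), Rec114 (-0.67 ± 0.22) and Dazl (-0.65 ± 0.17). Sycp3 (-0.70 ± 0.28, adjusted p = 0.0918) and Dppa3 (-0.44 ± 0.20, adjusted p = 0.133) did not pass. The count fell to 2 without the first DMSO library, 3 without the second, 1 (Mael) without the 10 nM library and 3 without the 100 nM library. With the DMSO pair summed to 1 library, none passed.

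At D18 the difference lay mainly in the 10 nM library, which was below both DMSO libraries in 8 of 8 genes (36.3% of all genes), while the 100 nM library was so in 6 of 8 (35.8%). Both libraries were below in the same 6, as in 23.9% of all genes. Dazl had 27.1 CPM at 10 nM and 38.2 CPM at 100 nM, against 41.2 and 44.3 CPM with DMSO. Stk31 had 2.70 and 4.48 CPM with TBBPA, against 5.06 and 4.96 CPM, and Mael 2.75 and 4.58 CPM, against 5.06 and 5.16 CPM. In all 3 the 10 nM library was the lower by far. Sycp3 had 3.57 and 7.87 CPM with TBBPA, against 6.64 and 8.55 CPM, and Piwil2 5.10 and 8.26 CPM, against 7.92 and 6.05 CPM. Prdm14 had 5.35 and 7.50 CPM, against 7.52 and 9.03 CPM. In Sycp3 the 100 nM library lay within the DMSO pair, in Piwil2 above it. Dppa3 had 4.15 and 4.43 CPM with TBBPA, against 6.17 and 6.99 CPM with DMSO, and Rec114 2.95 and 3.67 CPM, against 5.61 and 4.71 CPM. In these 2 genes both doses were low. None of the 8 passed in edgeR, where 10.5% of all genes passed, 4.56% lower and 5.96% higher. An unadjusted p under 0.05 was found for 5 of the 8 and for 3713 of 16383 genes tested. Dppa3 was at -0.62 ± 0.21 and Rec114 at -0.64 ± 0.22 (adjusted p = 0.0722 and 0.0724). DESeq2 called none, limma on log2(FPKM + 1) called 2, and without the 100 nM library 4 passed.

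At D28 the 10 nM library was below both DMSO libraries in 7 of 8 genes (35.9% of all genes) and the 100 nM library in 2 of 8 (40.6%). Dppa3 and Prdm14 were the 2, Prdm14 by less than the digits shown. In 5 of 8 genes the 100 nM library was above both, a share not counted over all genes. Rec114 had 2.60 CPM at 10 nM and 4.60 CPM at 100 nM, against 4.20 and 4.04 CPM with DMSO. Dazl had 41.8 and 50.05 CPM with TBBPA, against 49.4 and 49.1 CPM, and Mael 2.65 and 3.93 CPM, against 3.60 and 3.54 CPM. The 10 nM and 100 nM libraries stood on opposite sides of the DMSO pair in these genes. Sycp3 had 6.20 and 8.61 CPM with TBBPA, against 6.86 and 5.87 CPM with DMSO, and Piwil2 7.48 and 10.0 CPM, against 7.70 and 8.44 CPM. Prdm14 had 3.92 and 4.90 CPM, against 5.20 and 4.90 CPM, and Dppa3 4.43 and 4.14 CPM, against 5.35 and 4.75 CPM. Stk31 had 3.003 and 3.83 CPM, against 3.90 and 3.13 CPM. None of the 8 passed in edgeR, DESeq2 or limma, with a median of -0.11. An unadjusted p under 0.05 was found for 0 of the 8 and for 3428 of 16383 genes tested. Of all genes 7.09% passed, 3.44% lower and 3.65% higher.

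**Figure D3:**
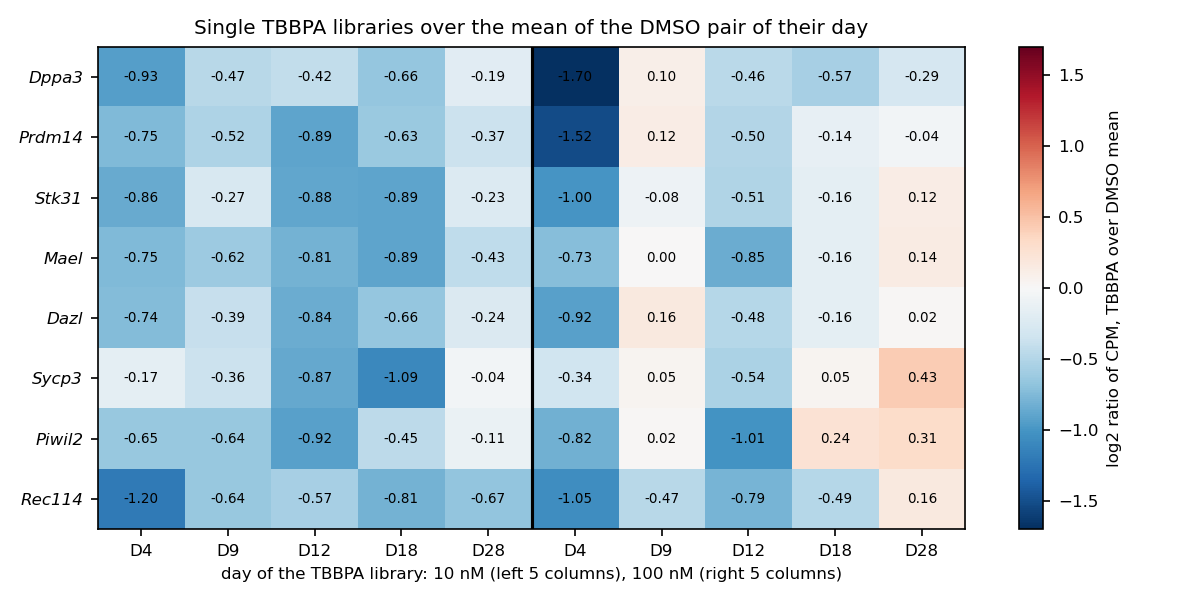
Log2 ratio of each single TBBPA library to the mean of the DMSO pair of its day (colour and printed value, blue lower, red higher), for the 10 nM libraries in the left 5 columns and the 100 nM libraries in the right 5. All ratios at 10 nM are below 0, from -1.20 for Rec114 at D4 to -0.04 for Sycp3 at D28, while the 100 nM ratios run from -1.70 for Dppa3 at D4 to 0.43 for Sycp3 at D28.

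Whether the effect changed with the day was asked for each gene by a test over the 5 days together. Dppa3 passed by a narrow margin (adjusted p = 0.0479), with estimates of -1.26 at D4, -0.16 at D9, -0.44 at D12, -0.62 at D18 and -0.24 at D28. The other 7 did not pass, and 10.4% of all genes did. The Dppa3 call was lost in 22 of 29 other settings, including the removal of 18 of the 20 embryoid body libraries in turn. Of those removals, the call held without the 10 nM library of D4 or of D9.

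Averaged over the days, with the day as a factor, all 8 genes fell with 10 nM TBBPA. Of all genes 9.68% passed at this dose, 4.25% lower and 5.44% higher, and the median was -0.60 for the 8 and 0.01 for all genes. The falls ran from -0.44 ± 0.13 for Sycp3 (adjusted p = 0.0465) to -0.75 ± 0.14 for Rec114 (adjusted p = 0.00212), with Mael at -0.71 ± 0.12 (adjusted p = 0.00121), Stk31 at -0.65 ± 0.14 and Prdm14 at -0.64 ± 0.15. Dppa3 (-0.56 ± 0.16), Dazl (-0.56 ± 0.10) and Piwil2 (-0.55 ± 0.16) lay between. Of 40 values at 10 nM, 39 were below both DMSO libraries of their day, against 36.8% of all genes' values, and none was above both. The exception was Sycp3 at D28, at 6.20 CPM between DMSO libraries of 6.86 and 5.87 CPM. Nptn, which overlaps Rec114, had a change of 0.00 ± 0.04 at this dose and Chpt1, which overlaps Sycp3, -0.06 ± 0.06.

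How many falls at 10 nM passed depended on single libraries and days. Without the 10 nM library of D12, 4 passed (Stk31, Mael, Dazl and Rec114), and without that of D9 or of D18, 5. Without all libraries of D12, 4 passed and without all of D18, 3 (Mael, Dazl and Rec114). With each DMSO pair summed to 1 library, 4 passed. Mael, Dazl and Rec114 passed in 29 of 30 settings, the exception being a fit with no day term, in which none of the 8 did. Sycp3 failed in 19 of the 30 settings, Piwil2 in 14, Dppa3 in 11, Prdm14 in 5 and Stk31 in 2. Sycp3 failed without either DMSO library of D4, D9, D12 or D18, and Piwil2 without either of D12 or the first of D18. Dppa3 failed without the second DMSO library of D18, and Dppa3 and Piwil2 both failed without the 10 nM library of D4. Sycp3 failed too without the 10 nM library of D28.

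At 100 nM, 3 of the 8 fell over the days, Dppa3 (-0.57 ± 0.16, adjusted p = 0.0217), Rec114 (-0.49 ± 0.13, adjusted p = 0.0172) and Mael (-0.34 ± 0.12, adjusted p = 0.0482), where 15.6% of all genes passed, 8.09% lower and 7.53% higher. The other estimates were all negative, from -0.35 ± 0.13 for Stk31 (adjusted p = 0.0799) to -0.09 ± 0.13 for Sycp3. Of 40 values, 25 were below both DMSO libraries and 10 above both, against 37.2% of all genes' values below. None of the 3 passed without the 100 nM library of D4 or of D12, 1 (Rec114) passed without that of D18, and none passed without all libraries of D4, of D12 or of D18. Mael failed in 18 of 30 settings, among them those without either DMSO library of D4, of D12 or of D18 or the first of D9.

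The doses share their DMSO libraries, so their values are set side by side here and compared by a direct contrast. As a percentage of the DMSO mean, the 8 genes had medians of 59.5% at 10 nM and 51.4% at 100 nM at D4, 70.9% and 102% at D9, 55.2% and 69.5% at D12, 60.2% and 89.6% at D18, and 85.1% and 110% at D28. The 10 nM library was the lower of the pair in 2 of 8 genes at D4, 8 at D9, 4 at D12, 8 at D18 and 7 at D28. Of all genes tested, 50.2% were lower at 10 nM at D4, 49.9% at D9, 50.8% at D12, 45.2% at D18 and 47.9% at D28. In the contrast of 100 nM against 10 nM over the days, 7 of 8 estimates were positive, with a median of 0.31, and none passed in edgeR, DESeq2 or limma. At an unadjusted p under 0.05, 3 of the 8 did (Dazl 0.34 ± 0.11, Mael 0.37 ± 0.14 and Sycp3 0.34 ± 0.16). So did 1025 of 16059 genes tested, of which 0% passed after adjustment. The Dppa3 difference was -0.01 ± 0.19. A difference between doses was thus not detected with 1 library for each dose and day, which does not show that the doses act alike.

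Taking both doses together over the days, 7 of the 8 fell, where 22.1% of all genes passed, 10.4% lower and 11.7% higher. Rec114 (-0.62 ± 0.11, adjusted p = 0.000498) and Mael (-0.53 ± 0.09, adjusted p = 0.000566) had the smallest p, followed by Dazl (-0.39 ± 0.08, adjusted p = 0.00151) and Stk31 (-0.50 ± 0.11, adjusted p = 0.00309). Dppa3 fell by 0.56 ± 0.13, Prdm14 by 0.49 ± 0.12 and Piwil2 by 0.39 ± 0.12, and Sycp3 did not pass (-0.27 ± 0.11, adjusted p = 0.0829). The median was -0.49 for the 8 and 0.01 for all genes. Leaving out any 1 library left 6 to 8 passing. Piwil2 failed in 15 of 35 settings, among them those without the second DMSO or the 100 nM library of D4, the 10 nM library of D9, any library of D12, or the first DMSO or the 10 nM library of D18. The other 6 failed in 1 to 3 settings each.

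**Figure D4:**
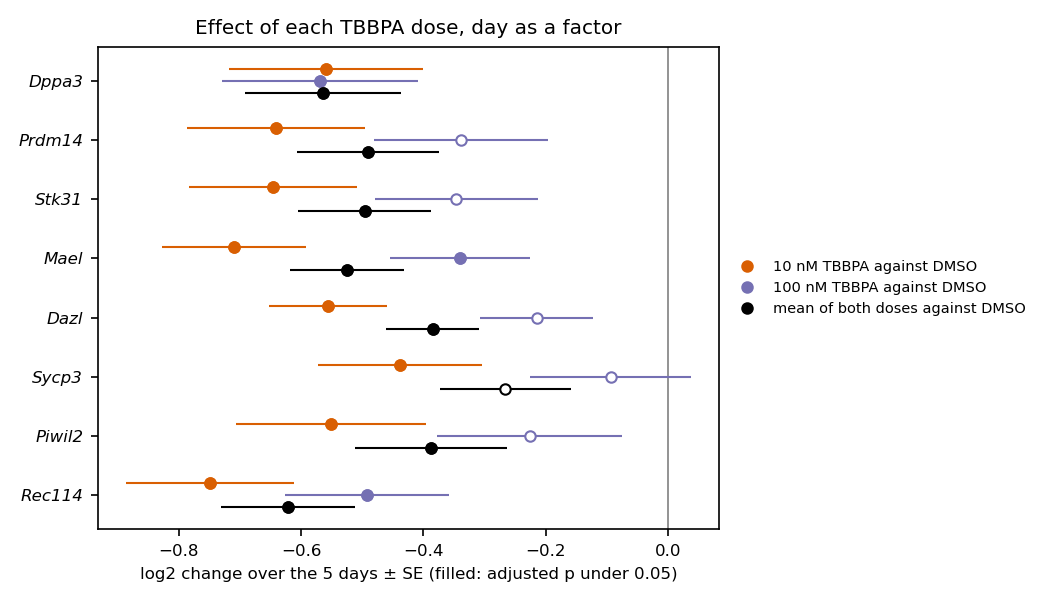
Log2 change over the 5 days with day as a factor for 10 nM TBBPA (orange), 100 nM TBBPA (purple) and the mean of both doses (black) against DMSO, with SE bars and filled points where the adjusted p was under 0.05. All 8 points at 10 nM are filled and lie between -0.44 and -0.75, 3 of 8 are filled at 100 nM and 7 of 8 for both doses.

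Other germ cell genes were read in lists that do not hold the 8, with both doses over the days, where 10.4% of all genes fell and 11.7% rose. Of 12 primordial germ cell genes, 6 fell and 0 rose, with a median of -0.25. Tfap2c, a transcription factor of primordial germ cells and extraembryonic tissue, fell by 0.55 ± 0.06 (adjusted p = 2.02e-06). Rhox9, a homeobox gene of germ cells and placenta, fell by 1.01 ± 0.11 (adjusted p = 4.39e-06), and Prdm1, the repressor that specifies these cells, by 0.30 ± 0.06. Alpl, an alkaline phosphatase that ES cells also carry, fell by 0.32 ± 0.06. At D28 alone, where 3.65% of all genes rose and 3.44% fell, Kit (0.43 ± 0.10) and Lin28a (0.54 ± 0.14) rose. Tfap2c fell on that day (-0.48 ± 0.13).

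Of 22 PIWI and piRNA genes, 19 were tested, 7 fell and 0 rose, with a median of -0.29. Mov10l1, a helicase that loads piRNA precursors, fell by 0.50 ± 0.09 (adjusted p = 0.000823) and Ddx4, the RNA helicase Vasa, by 0.40 ± 0.08 (adjusted p = 0.00138). Gpat2 fell by 0.31 ± 0.05 and the Tudor domain gene Rnf17 by 0.32 ± 0.07. At D12, where 9.19% of all genes fell and 11.9% rose, 5 of 20 tested fell, and Tdrkh rose (0.57 ± 0.09, adjusted p = 0.00017).

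Of 31 meiosis genes, 29 were tested, 8 fell (10.4% of all genes) and Psmc3ip rose (0.16 ± 0.05, named after its value was seen; 11.7% of all genes), with a median of -0.15. Smc1b, the meiotic cohesin subunit, fell by 0.44 ± 0.08 (adjusted p = 0.000924), Meioc, which holds germ cells in meiosis, by 0.42 ± 0.08, and the axis proteins Hormad1 and Hormad2 by 0.49 ± 0.10 and 0.47 ± 0.10. Most tested meiosis genes, 20 of 29, did not pass.

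Genes of differentiated gametes were sparse. Of 17 oocyte genes 6 were tested, of which Sohlh2 (-0.47 ± 0.09), Ooep (-0.36 ± 0.08) and Khdc3 (-0.45 ± 0.11) fell and Gdf9 rose (0.51 ± 0.16). Ooep and Khdc3, maternal proteins of the egg cortex, were also abundant in ES cells, at 73.9 and 55.3 FPKM. Of 18 spermatogonium and sperm genes 11 were tested, 5 fell, among them Tuba3a (-0.44 ± 0.08) and Tex14 (-0.43 ± 0.08), and Zbtb16 rose (0.27 ± 0.06). Spo11, the enzyme that breaks meiotic DNA, averaged 0.03 FPKM at most in any group, the egg coat gene Zp2 0.015 FPKM at most, and the sperm genes Prm2, Tnp1 and Acrv1 were listed in 3, 1 and 2 of the 22 libraries.

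Pluripotency markers moved beside the germ cell genes. Of 16 pluripotency genes, 14 fell at D12 with TBBPA (median -0.68) and Sox2 rose, where 9.19% of all genes fell and 11.9% rose. At D4, 4 fell (median -0.52), where 0.372% of all genes fell. None fell at D9, D18 or D28, and Klf4 rose at D28 (0.43 ± 0.12), where 3.65% of all genes rose. Over the days, 11 of 16 fell with both doses (10.4% of all genes), 8 with 10 nM (4.25%) and 0 with 100 nM (8.09%) in edgeR. Their summed level was 2520 FPKM in both TBBPA libraries at D4 and 2960 to 3000 FPKM with DMSO. It was 796 to 1090 FPKM with TBBPA at D9 and 1110 to 1130 FPKM with DMSO, and 777 to 783 FPKM with TBBPA at D12 and 1110 to 1170 FPKM with DMSO. At D18 it was 793 to 912 FPKM with TBBPA and 883 to 908 FPKM with DMSO, and at D28 622 to 710 FPKM with TBBPA and 644 to 655 FPKM with DMSO, so the groups overlapped on these days. Of 80 values at 10 nM, 66 were below both DMSO libraries, against 36.8% of all genes' values, and at 100 nM 51, against 37.2%. No marker of this list was at 0. The part of these markers in the germ cell result was not tested.

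**Figure D5:**
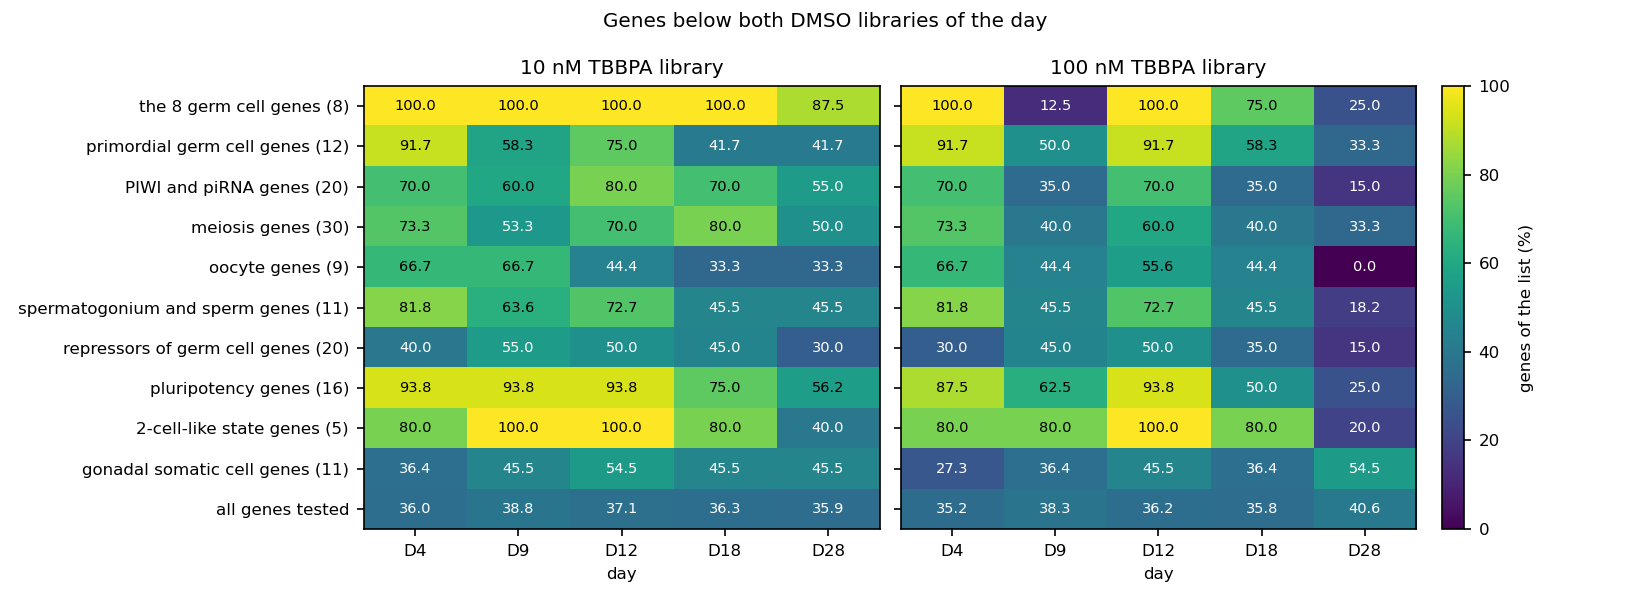
Percentage of the tested genes of each list (number tested in brackets) that lay below both DMSO libraries of the day, in the 10 nM library (left) and the 100 nM library (right) at D4 to D28. The germ cell genes, the pluripotency genes and the 5 tested genes of the 2-cell-like state stand at 75.0 to 100% in the 10 nM libraries at D4 to D18. All genes tested lie between 35.2 and 40.6% over both panels.

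Across the 22 libraries the 8 genes fell into different courses, described here by Pearson's r of log2 CPM, with libraries that share days, controls and depth. Prdm14 and Rec114 were closest (r = 0.94), then Mael and Sycp3 (0.91) and Dppa3 and Stk31 (0.82), whereas Dazl ran against Mael and Sycp3 (-0.66 for each). Among all genes, Dazl was most like Sohlh2 (r = 0.963, a transcription factor of early oocytes and spermatogonia), Stk31 most like Meioc (0.924) and then Rnf17 (0.902), and Piwil2 most like Mov10l1 (0.889). Mael was most like B3gnt7 (0.942), followed by Smc1b (0.931) and Tdrd1 (0.916), and Sycp3 most like Dtnb (0.963), Gstt2 and Smc1b (0.962 each). Prdm14 was most like Ism2 (0.984) and Nr5a2 (0.977), Rec114 most like Calcoco2 (0.95) and Dppa3 most like Matn1 (0.901). The mean of the 8, scaled per gene, was most like Sec1 (0.9), Prss38 (0.894), Hormad2 (0.89), Mov10 and Rnf17 (0.887 each).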

How the data were processed

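One deposited table per library gives, per the file headers, an expected count and an FPKM value for each gene with its length. Reads were aligned with HISAT and Bowtie2 to GRCm38.p5, per the submitters' processing notes; the counting tool and strand are not given in the sources used here. Between 64.9 and 66.7% of the deposited expected counts were whole, and genes that a table does not list count as 0 there.

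Expected counts were rounded for edgeR 4.0.16 under R 4.3.3 (TMM, filterByExpr with minimum count 10 and total 15, robust quasi-likelihood F tests, Benjamini-Hochberg over all genes, threshold 0.05). Control steps came from 12 control libraries (16203 genes), the TBBPA effect at each day and between days from 22 libraries (16383 genes, 10 nM and 100 nM taken as a pair), and dose effects from 20 libraries with day as a factor (16059 genes). The SE of a change is its size over the root of its F value. The members, lists and tests were chosen with earlier results of these data known. From each other list up to 4 passing genes of smallest p in a comparison, and the most abundant, were named, and for likeness the 3 genes of highest r, or 5 for the mean. Alternatives used DESeq2 1.42.0 and limma 3.58.1 on log2(FPKM + 1), among others. On simulated counts at D12, 59.7% of genes changed 1.5-fold and 92.5% of those changed 2-fold were recovered, with 7.3% false calls; over both doses these were 89.6%, 100% and 6.76%. Promoters matched RefSeq by symbol. Figures used matplotlib 3.10.9.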

Additional observations from a re-analysis of the deposited data

Results flagged for a closer look

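Dppa3 was the only one of the 8 germ cell genes whose TBBPA effect differed between the days in the test of that difference (adjusted p = 0.0479, edgeR), with -1.26 ± 0.19 at D4 and -0.16 ± 0.20 at D9. At D4 both TBBPA libraries, at 9.60 and 5.64 CPM, lay below both DMSO libraries, at 18.7 and 17.99 CPM, while at D9 the 100 nM library, at 8.95 CPM, was above the DMSO libraries, at 7.91 and 8.74 CPM. The call was lost in 22 of 29 other settings, so it rests on a narrow margin.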

How the results depend on the processing

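Of 128 pairs of a gene and a comparison, 53 passed and 19 of these passed in every setting, 888 of 1080 recomputed values of passing pairs staying past the threshold, 192 losing it and 0 turning direction. With 2 libraries a group, and 1 library for each dose and day, these calls depend on single libraries, and counts of 31 to 1293 limit the lower genes.

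Counts of germ cell genes that passed were 5 to 8 over all settings at D9 against D4 (7) and 4 to 6 at D28 against ES (5), and moved further as follows. At D18 against D12 (2) and D28 against D18 (3), DESeq2 and the fit of all 22 libraries each gave 1. TBBPA at D4 (2) gave 5 with DESeq2, 4 with limma on log2(FPKM + 0.1), 1 with limma without a filter, 8 with the 4 libraries alone and 0 after adding the DMSO libraries of a day into 1. TBBPA at D12 (6) gave 0 with the pairs summed. TBBPA at D18 (0) gave 2 with limma on log2(FPKM + 1) and 1 with the 4 libraries alone. The test between days (1) gave 0 with library size alone, limma with 0.1, limma without a filter and the pairs summed. For 10 nM (8), limma without a filter gave 5, the pairs summed 4, leaving out D12 4, leaving out D18 3 and no day term 0. For 100 nM (3), the pairs summed, leaving out D4, D12 or D18, and no day term gave 0, and for both doses (7) no day term gave 0. Leaving out each library gave 1 to 2 for D12 against D9 and for D18 against D12, 0 to 2 for TBBPA at D4, 1 to 3 at D12, 0 to 4 at D18, 0 to 1 between days, 4 to 8 for 10 nM and 0 to 4 for 100 nM. The causes were not tested.

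Estimates near 0 that did not pass turned sign. Stk31 at D4 against ES was 0.017 with library size alone and with limma with 0.1, and 0.012 with limma with and without a filter. At D12 against D9, Dppa3 was 0.025 with library size alone, 0.026 with limma with 0.1 and 0.024 in the other limma fits, and Prdm14 was 0.009 with DESeq2 and its size factors, 0.034 with library size alone, 0.036 with limma with 0.1 and 0.029 in the other limma fits. At D28 against ES, Dazl was -0.011 in the fit of all libraries, and Piwil2 0.166 with library size alone, 0.186 with limma with 0.1 and 0.114 in the other limma fits. Library size alone shifted the median of all genes by 0.298 in that step and by 0.141 at D9 against D4. Sycp3 at 100 nM was 0.000 without D12, and Dppa3 at 100 nM against 10 nM was 0.152 without D4, 0.001 without D12 and 0.009 without D28.

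Leaving out a library gave -0.136 to 0.12 for Stk31 at D4 against ES. At D12 against D9 it gave -0.107 to 0.038 for Dppa3, -0.107 to 0.06 for Prdm14 and -0.276 to 0.085 for Rec114. At D28 against ES it gave -0.148 to 0.175 for Dazl and -0.456 to 0.289 for Piwil2. For TBBPA at D9 it gave -0.468 to 0.105 for Dppa3, -0.522 to 0.124 for Prdm14, -0.618 to 0.003 for Mael, -0.388 to 0.164 for Dazl, -0.362 to 0.059 for Sycp3 and -0.638 to 0.017 for Piwil2. At D18 it gave -1.089 to 0.052 for Sycp3 and -0.45 to 0.241 for Piwil2. At D28 it gave -0.228 to 0.125 for Stk31, -0.43 to 0.14 for Mael, -0.237 to 0.023 for Dazl, -0.034 to 0.433 for Sycp3, -0.109 to 0.311 for Piwil2 and -0.666 to 0.158 for Rec114. Over the days it gave -0.186 to 0.033 for Sycp3 at 100 nM and -0.213 to 0.231 for Dppa3 at 100 nM against 10 nM.

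No pairing of libraries by the replicate numbers of the titles was seen. Over 15 pairs of control groups the correlation of same-numbered deviations was -0.036 to 0.057, with 0 pairs over 0.1. The DMSO libraries of a day differ little beyond counting noise, so a weak pairing could be missed. With the replicate number as a block, the counts of passing germ cell genes were 7, 7, 2, 2, 3 and 5 over the 6 control comparisons, as without it.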

Other observations

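The 20 listed repressors of germ cell genes, which include subunits of the E2F6 and MGA complex and the DNA methyltransferases, were all measured. With both doses over the days 5 rose and 3 fell (median 0.02), where 11.7% of all genes rose and 10.4% fell, the farthest from 0 being Dnmt3l, the methyltransferase cofactor of germ cells, which fell by 0.42 ± 0.11 (adjusted p = 0.0114). Mga fell by 0.13 ± 0.03 and Tfdp1 rose by 0.12 ± 0.03. At D12, 4 of the 20 rose and 3 fell, where 11.9% of all genes rose and 9.19% fell. Among them, E2f6 rose by 0.28 ± 0.08 and Ring1 by 0.59 ± 0.10, while Rybp fell by 0.40 ± 0.07 and Dnmt3l by 0.87 ± 0.24. In the control course Dnmt3a rose at D4 against ES cells (2.44 ± 0.07) and Dnmt3b averaged 198 FPKM at D4 and 14.1 FPKM in ES cells.

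Of 11 genes of the 2-cell-like state 5 were tested. Dppa2 (-0.49 ± 0.09), Dppa4 (-0.32 ± 0.07) and Zscan4d (-0.79 ± 0.28) fell with both doses over the days (10.4% of all genes). Dppa2 and Dppa4 averaged 27.2 and 43.8 FPKM in ES cells, whereas Zscan4d averaged 0.38 FPKM at most in any group. No other measured gene of this list averaged more than 1.42 FPKM in any group. Of 14 genes of gonadal somatic cells 11 were tested, Dmrt1 (-0.46 ± 0.09, adjusted p = 0.00116) and Cyp11a1 (-0.66 ± 0.20) fell and Sox9 (0.25 ± 0.06) and Foxl2 (0.38 ± 0.14) rose, against the same shares of all genes. Dmrt1, a transcription factor of Sertoli and germ cells, was also among the genes most like Stk31 over the libraries (r = 0.894). Fshr, the receptor that marks Sertoli and granulosa cells, was listed in 2 of 22 libraries.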
